A study of Mus musculus with 3 samples.

Results

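The mouse genes whose symbol is Zfp followed by a number code for zinc finger proteins, and their DNA methylation in sperm is described here by place in the gene and by gene cluster. Windows were taken wherever the deposited methylation report gave such a symbol, and a window was counted once per gene. This gave 882 windows of 500 bp in 178 Zfp genes, out of 143198 windows and 15181 gene symbols in all. Of these windows, 2 carried the symbols of 2 Zfp genes, so that there were 884 pairs of a gene and a window, and 50 windows also named a gene outside the series.

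Sperm came from the cauda epididymis of C57BL/6 mice aged 14 weeks that had received saline (vehicle control), 0.02 mg/kg doxorubicin (DXR, low dose) or 0.2 mg/kg DXR (high dose). DXR is an anthracycline that poisons topoisomerase II, and injections into the peritoneum were given 2 times a week for 5 weeks from 8 weeks of age, with sperm taken 4 days after the last one. Fragments that bound the methyl-CpG-binding protein MBD2 were sequenced (MBD-seq), with 1 library per group, so there is no replicate error, no test and no p-value, and no difference below has a replicate check. The number of animals behind a library was not given in the sources used here. Where 3 RMS values are set side by side below, they stand in the order vehicle, 0.02 mg/kg and 0.2 mg/kg.

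Most Zfp proteins carry tandem C2H2 zinc fingers that read DNA sequence, and in many of the genes the whole array of fingers is coded by 1 long exon near the 3' end. A large share also carry a KRAB domain, through which the corepressor TRIM28 and the histone methyltransferase SETDB1 are brought to DNA, mainly to silence retrotransposons and to keep the methylation of imprinted loci in the embryo. KRAB zinc finger genes arose by repeated duplication and lie in clusters of near copies. The symbol series is a naming series and not a family: Zfp36, for example, codes for tristetraprolin, which has another type of zinc finger and binds mRNA.

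Each window has an RMS value in each library, a methylation score whose abbreviation the headers do not spell out. It rises with read density for a given CpG content. The quotient of RMS and the second deposited score, AMS, is a property of the window that served as a stand-in for its CpG content and is called the CpG factor below. The table lists only windows with RMS above 1 in at least 1 library, so a gene or promoter without a window was low in all 3 libraries or was not listed for another reason. At genes with known parental methylation the highest RMS was 5.58, 5.94 and 5.65 for H19 and 4.68, 5.79 and 5.73 for Rasgrf1, both of them methylated in sperm. Meg3, also methylated in sperm, reached only 3.01, 2.85 and 3.05. Of genes unmethylated at their control region in sperm, Peg10 reached 1.65, 1.89 and 1.61 and Plagl1 1.33, 0.914 and 0.696. Peg3, of the same kind as these 2, reached 3.14, 3.87 and 5.67, above Meg3 in each library. These windows were taken by gene symbol and need not lie on the control regions.

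Zfp promoters were nearly free of listed windows. Of 370 promoters of 307 Zfp genes in the RefSeq table for GRCm38 (the assembly that mm10 names), each running from 250 bp before to 50 bp after a transcription start, 3 overlapped a listed window, which is 0.811%. Among 32481 promoters of other genes, 1333 did (4.10%). The dinucleotide CG was present in all Zfp promoters (100%) and in 94.5% of the others, with a median of 14 CG per Zfp promoter against 7. The 3 promoters with a window are printed here 5' to 3' with each CG in capitals, because they are the whole set of Zfp promoters that a listed window overlapped. A promoter of Zfp668 with no window follows, as an example of the usual, CG-rich kind.
Zfp652, chr11:95748817-95749116, plus strand: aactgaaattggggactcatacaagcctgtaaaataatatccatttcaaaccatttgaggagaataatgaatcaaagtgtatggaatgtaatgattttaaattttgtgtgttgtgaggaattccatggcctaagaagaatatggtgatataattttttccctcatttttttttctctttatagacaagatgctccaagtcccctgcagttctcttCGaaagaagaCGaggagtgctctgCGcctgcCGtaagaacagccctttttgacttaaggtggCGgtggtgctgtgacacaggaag
Zfp958, chr8:4612920-4613219, plus strand: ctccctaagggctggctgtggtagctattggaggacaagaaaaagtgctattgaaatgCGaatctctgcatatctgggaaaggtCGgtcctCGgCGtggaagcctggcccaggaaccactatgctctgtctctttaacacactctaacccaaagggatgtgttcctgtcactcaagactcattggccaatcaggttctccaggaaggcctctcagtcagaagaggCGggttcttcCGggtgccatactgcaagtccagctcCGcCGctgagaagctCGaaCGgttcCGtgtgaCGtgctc
Zfp982, chr4:147492167-147492466, plus strand: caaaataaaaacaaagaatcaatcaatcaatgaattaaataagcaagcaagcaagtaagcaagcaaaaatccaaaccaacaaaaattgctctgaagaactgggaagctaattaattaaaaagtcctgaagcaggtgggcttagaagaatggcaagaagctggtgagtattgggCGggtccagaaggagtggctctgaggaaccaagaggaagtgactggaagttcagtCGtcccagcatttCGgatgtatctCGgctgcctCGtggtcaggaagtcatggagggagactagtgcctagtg
Zfp668, chr7:127876787-127877086, minus strand: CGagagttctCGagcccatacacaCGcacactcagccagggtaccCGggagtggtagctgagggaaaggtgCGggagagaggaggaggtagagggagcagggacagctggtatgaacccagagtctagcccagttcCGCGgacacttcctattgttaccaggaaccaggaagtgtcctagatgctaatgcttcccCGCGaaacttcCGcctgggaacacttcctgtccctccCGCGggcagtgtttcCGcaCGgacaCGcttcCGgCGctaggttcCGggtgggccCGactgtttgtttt

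The promoters of Zfp652 and Zfp982 hold 5 CG each and that of Zfp958 holds 12, against 19 in that of Zfp668. Set apart by CG content, the difference stood in the middle ranges and not at the ends. With 6 to 10 CG, 0 of 93 Zfp promoters had a window against 13.0% of 4854 others. With 11 to 20 CG, 1 of 125 Zfp promoters (0.8%) had one against 4.45% of the others, and with 0 to 5 CG it was 2 of 55 (3.64%) against 3.11%. With 21 or more CG a window was rare in both, at 0 of 97 Zfp promoters and 0.273% of the others.

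All 3 Zfp promoter windows were weak. The window at the Zfp652 promoter, chr11:95749001-95749500, covers 116 bp of it and had RMS 1.63, 0.622 and 0.228, a stepwise order with a high dose change of -1.27 on the scale defined below. The adjoining exon 1 window, 95749501 to 95750000, went the other way, with 3.92, 4.47 and 6.36. The window over 81 bp of the Zfp958 promoter, chr8:4612501-4613000, is annotated as intergenic and read 1.32, 0.575 and 0.730, highest in the control. Most CG of this promoter lie outside that window, so its values say little about the promoter itself. The window over the Zfp982 promoter, chr4:147492001-147492500, is annotated to the transcript AL731663.2 and read 0.955, 1.35 and 1.18, lowest in the control. Zfp652 codes for a repressor that in human cells works with the corepressor CBFA2T3.

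Within the genes, windows were placed by the deposited annotation, with the smallest exon number of any transcript deciding the class. Exons held 487 of the 884 pairs (55.1%) and introns 385 (43.6%), while in all other genes exons held 44.4% and introns 53.8%. By number of windows per gene, the 17 Zfp genes with 10 or more had 248 intronic and 132 exonic windows, and the other 161 genes had 137 and 355. A single Zfp window lay upstream, at Zfp930, with RMS 1.61, 2.13 and 1.75, and 11 lay downstream.

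Of the exonic and intronic places, exons 2 to 3 had the highest control median. Their 203 pairs in 83 genes had median RMS 2.50, 2.23 and 2.27, against a control median of 1.87 in 10535 such pairs of other genes. Exon 4 and later exons, with 252 pairs in 95 genes, had 1.998, 2.04 and 1.81, against a control median of 1.87 in other genes. The 385 intronic pairs were lowest, at 1.69, 1.40 and 1.29, and their control median was the same as the 1.69 of other genes. The median CpG factor of the windows in exons 2 to 3 was 3.0 in Zfp genes and 2.6 in other genes, so CpG content differed along with the signal. Within exonic windows of the highest CpG factor (3.4 or more), the control median was still 3.64 in 163 Zfp pairs and 3.18 in other genes. At factors of 2.8 to 3.2 it was 2.54 in 122 pairs against 2.23, and at factors up to 2 it was 1.37 against 1.39, so the gap was seen in the CpG-rich exonic windows. In introns of the highest factor the order was the other way, with 2.68 in Zfp genes and 3.03 in others.

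**Figure D1:**
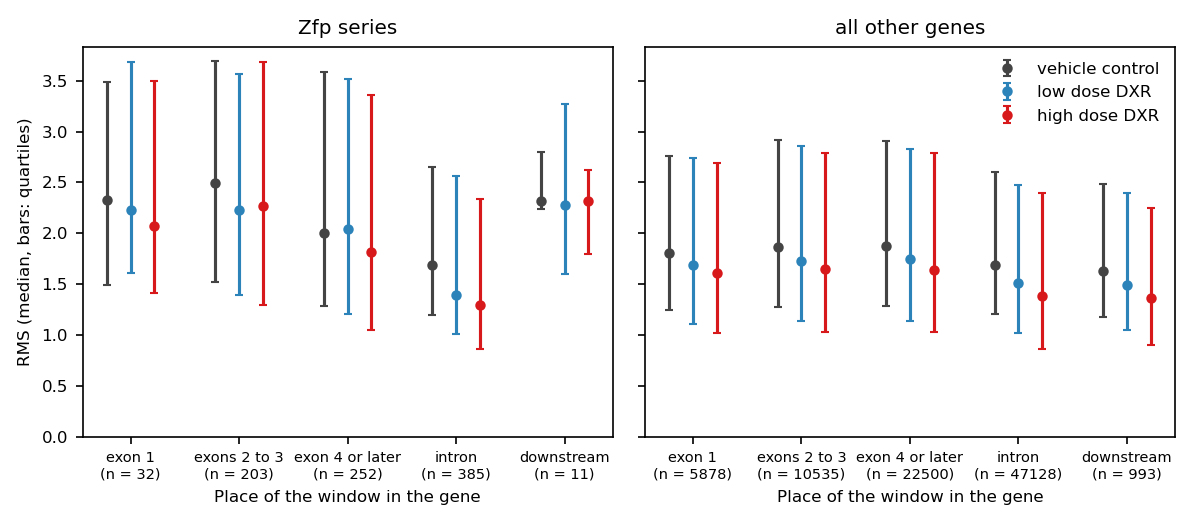
Median RMS (points) with quartiles (bars) on the vertical axis by place of the window in the gene on the horizontal axis, for Zfp genes on the left and all other genes on the right, with n pairs of a gene and a window under each place and 1 library per group. Zfp exons 2 to 3 stand highest among the exonic and intronic places with 2.50 in the control library, and Zfp introns lowest with 1.69.

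Exon 1 windows were few, with 32 pairs in 22 Zfp genes and medians of 2.33, 2.22 and 2.07. Those with most signal belonged to Zfp462, which codes for a chromatin factor of embryonic stem cells and neural development, at 5.91, 5.72 and 5.98 in chr4:55013001-55013500. They need not mark a promoter. The exon 1 windows of Zfp462 belong to a transcript that begins inside the gene, beside 5 windows of exons 2 to 3 that adjoin them. Next came Zfp513 with 4.13, 3.77 and 3.57, Zfp408 with 4.13, 4.18 and 3.82, and Zfp238, a repressor that acts in neuronal development, with 3.94, 3.98 and 4.15. In these 3 genes the libraries lay close together, while Zfp384 had 3.44, 4.34 and 3.84 and Zfp827 had 3.37, 2.28 and 1.87, highest in the control.

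Along the gene, windows gathered toward the 3' end. For 163 Zfp genes whose span could be matched in RefSeq, cut into 5 equal parts, the part nearest the start held 6.87% of 801 pairs and that nearest the end 29.8%, with 14.9%, 22.8% and 25.6% between. In other genes the shares in the same order were 11.7%, 16.3%, 19.1%, 23.3% and 29.6%. For genes under 30 kb the split was wider, with 2.997% of Zfp pairs in the part nearest the start and 34.6% in that nearest the end, against 9.04% and 27.7% in other genes of that size. Within 3 kb of the start lay 10.1% of Zfp pairs and 16.8% of the others, and within 3 kb of the end 39.2% and 36.5%.

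Many Zfp windows adjoined each other in long stretches, most of them exonic. Runs of 4 or more adjoining windows held 154 of the 884 pairs (17.4%), in 31 runs of 28 genes, against 10.1% of pairs in other genes. Of the 154 pairs 119 were exonic (77.3%), while of such pairs in other genes 46.7% were. The runs of Zfp69 and Zfp933, with 6 windows each, and of Zfp277, Zfp536 and Zfp664, with 4 each, held 0 exonic windows. RMS was high in the runs, with medians of 3.14, 2.71 and 2.65, and changes were small, with a median of -0.04 at the high dose. The minimum of 4 windows was chosen after the values had been seen, and these shares are a description.

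The longest run lay in Zfp423, which codes for a partner of EBF factors needed for fat cell identity and cerebellar growth. It covered 10 windows, chr8:87780001-87785000, of which 7 were in exons 2 to 3, with mean RMS 4.29, 4.08 and 4.44. Its highest window, at 87781001, read 10.1, 8.70 and 11.2 and was exceeded among Zfp windows of the control library by an exon 2 to 3 window of Zfp707 on chromosome 15, at 11.004, 9.43 and 11.8. In both windows the low dose library was lowest and the high dose library highest.

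In some other runs with exonic windows the means of the 3 libraries were also close. That of Zfp532, chr18:65623001-65625500 with 5 windows, averaged 5.42, 5.53 and 5.30, and that of Zfp407, chr18:84208501-84210500 with 4 windows, averaged 5.23, 5.41 and 5.28. Zfp462 had 7 adjoining exonic windows that averaged 3.52, 3.34 and 3.12, with changes down to -0.48 at the high dose. Zfp334 had 6, 5 of them exonic, that averaged 3.93, 3.68 and 3.40, and 1 of these was past the lower limit at the high dose, at -1.04. Elsewhere the means lay farther apart, as in the runs of Zfp628, with 3.25, 2.43 and 2.45, and of Zfp618, with 4.60, 5.11 and 6.19. In some runs every window shifted the same way. The 4 windows of exons 2 to 3 of Zfp507, chr7:35793501-35795500, averaged 2.07, 1.08 and 0.976, with each window at -0.52 or below at the high dose. In the same gene an exon window at 35776001 read 3.35, 3.69 and 3.53. The 5 windows of Zfp574, chr7:25080001-25082500, averaged 3.39, 3.80 and 4.41, each of them higher at the high dose than in the control, by 0.19 to 0.47. Zfp507 and Zfp574 were picked out after their values were seen.

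The change of a window is log2((treated RMS + c)/(control RMS + c)), in which the pseudocount c of 0.766 is the 10th percentile of RMS values above 0, so that changes of weak windows are understated. A window is called higher or lower at 1 or more in size, 2-fold on this scale. Across the 882 Zfp windows the median RMS was 1.98 (quartiles 1.26 and 3.30), 1.83 (1.11 and 3.10) and 1.68 (1.01 and 3.05), against 1.80, 1.67 and 1.57 over all windows. The median change of Zfp windows was -0.10 for 0.2 mg/kg and -0.08 for 0.02 mg/kg. Over all windows it was -0.10 and -0.05, and over gene-annotated windows -0.14 and -0.08, so the Zfp medians lay close to those of the rest. After division of each library by its median RMS they were 0.03 and 0.00441 for Zfp windows and 0.04 and 0.02 for all windows, so the direction turned with the scaling.

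At the high dose 24 Zfp windows in 19 genes were lower than control and 0 were higher. The 24 are 2.72% of Zfp windows, and the background of windows called lower was 2.52% of all windows and 2.85% of gene-annotated ones; higher calls were 0.0824% and 0.0804% of these. At the low dose 12 Zfp windows in 11 genes were lower (1.36%), against 1.24% of all and 1.39% of gene-annotated windows, and 2 were higher (0.227%), against 0.12% and 0.123%. Between the doses, 1 window was higher at the high dose, against 0.0293% of all windows (0.0268% of gene-annotated ones), and 2 were lower, against 0.33% (0.357%). The shares of Zfp windows thus lay near the background in each comparison. Of the 24 windows lower at the high dose, 20 had a control read density below the library median of 2.42 RPM. The calls thus sat among weakly covered windows, and the number of reads behind each was not worked out. These lower windows counted 16 when each library was divided by its median RMS and 4 after quantile normalization. Once the trend with read density and CpG factor over all windows was subtracted, they counted 1.

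**Figure D2:**
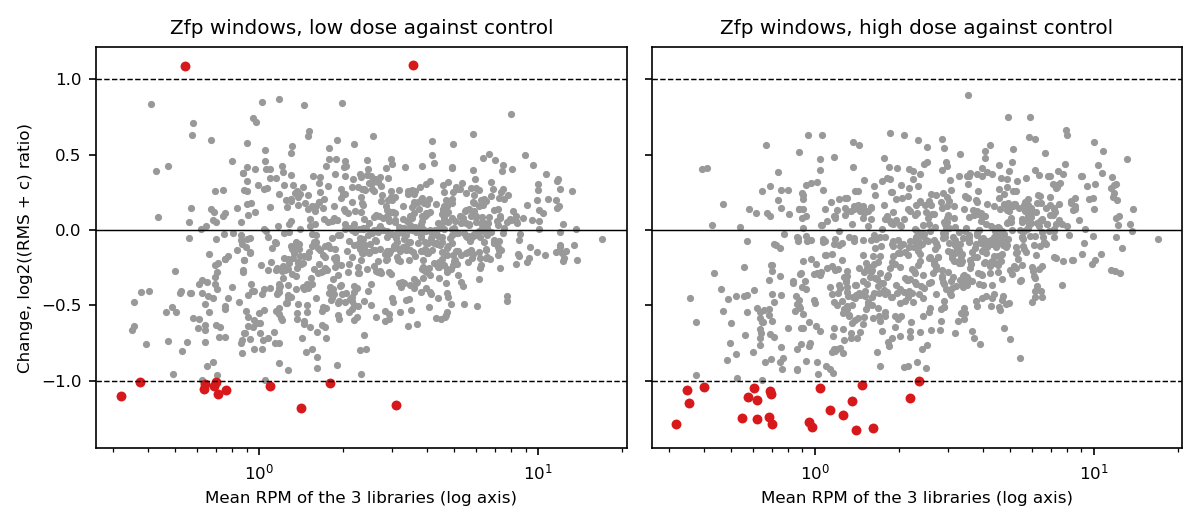
Change of each Zfp window (vertical axis, log2 ratio with pseudocount) against its mean RPM over the 3 libraries (horizontal log axis), for the low dose on the left and the high dose on the right, with dashed lines at the limits of -1 and 1 and windows past them in red. Windows past the lower limit, 12 and 24, lie mostly at low mean RPM.

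By place in the gene, 14 of the 24 windows lower at the high dose were intronic, 7 lay in exon 4 or later, 2 in exons 2 to 3 and 1 in exon 1. As shares these are 3.64% of intronic pairs, 2.78% of those in exon 4 or later, 0.985% of those in exons 2 to 3 and 3.13% of those in exon 1. In other genes the shares were 3.29%, 2.29%, 2.34% and 2.19%. The median change was -0.20 in Zfp introns and -0.17 in introns of other genes, and between -0.08 and -0.07 in the 3 exon classes of Zfp genes. Introns are also the places with the lowest RMS, and the part of that level in the larger step down was not tested. Windows on either side of the limit had nearly the same change but not the same RMS. One of Zfp933 at -1.002 counted, with 3.70, 1.99 and 1.46, and one of Zfp821 at -0.99 did not, with 1.42, 0.403 and 0.329. The Zfp821 window was the weaker, and the pseudocount understates its change more.

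Genes with the largest change either way were named from windows whose larger RMS was at least 1.68, the median of all values above 0, each by its window of largest change. Windows past the limit at both doses or between the doses were named without that minimum. The deepest fall at the high dose was in an intron of Zfp516, which codes for a partner of PRDM16 in brown fat, at chr18:82962501-82963000, with 2.65, 0.741 and 0.597. Its changes were -1.33 for 0.2 mg/kg and -1.18 for 0.02 mg/kg, and both treated libraries lay far below the control. Zfp407, a broadly expressed gene with a role in glucose uptake of fat cells, had an intronic window at chr18:84376001-84376500 with 1.81, 0.493 and 0.322, changes of -1.24 and -1.03. An exon 4 window of Zfp866, chr8:69765501-69766000, shared with Gm20422, read 1.10 and 0.108 and is listed at 0 for 0.2 mg/kg, with a low dose change of -1.10. These 3 were past the limit at both doses, as were 0.548% of all windows, and both comparisons use the same control library. The low dose change of the Zfp407 window lay between -0.96 and -0.84 under quantile normalization, division by library medians, RPM in place of RMS and subtraction of the trend with read density. Its high dose change was -0.97 under quantile normalization and -0.94 with the trend subtracted, and that of Zfp516 was -0.98 with the trend subtracted. The window of Zfp866 also missed the high dose limit under those 2 settings, and the 3 windows all missed it with the pseudocount multiplied by 3.

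4 further genes completed the high dose list. An exon 5 window of Zfp846, chr9:20594001-20594500, read 3.54, 1.52 and 0.964 (change -1.32), and an intronic one of Zfp532, chr18:65684001-65684500, read 2.32, 1.25 and 0.482 (-1.31). Both were highest in the control and lowest at the high dose. Zfp708, a KRAB protein known to bind a retrotransposon family in mouse embryonic stem cells, had an exon 6 window at chr13:67102001-67102500 with 1.999, 0.685 and 0.413 (-1.23), which lies past the bounds of the RefSeq gene. Zfp827, whose human counterpart brings the NuRD complex to telomeres, had an exon 2 window at chr8:79180001-79180500 with 2.99, 1.47 and 0.879 (-1.19). All 4 followed the same stepwise order of control, low dose and high dose, which the choice by a large fall at the high dose favours. With the trend subtracted, the changes of Zfp532, Zfp708 and Zfp827 missed the limit, at -0.94, -0.91 and -0.83. That of Zfp846 stayed past it, at -1.02. With the pseudocount multiplied by 3, all 4 missed it.

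No Zfp window passed the upper limit at the high dose. The largest upward change was 0.90 in an exon 3 window of Zfp668, whose human counterpart acts in DNA repair, at chr7:127867001-127867500, with 0.424, 1.77 and 1.45. At the low dose its change was 1.09, past the limit. An intronic window of Zfp609, whose product works with cohesin loading and Integrator in neural progenitors, read 3.96, 4.79 and 7.17 (0.75). The exon 2 window of Zfp646 on the same chromosome read 4.01, 6.32 and 7.25 (0.75). In both genes the order was control, low dose, high dose, which the choice by a large rise at the high dose favours.

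An exon 4 window of Zfp658 read 4.71, 8.58 and 7.93, with changes of 0.67 at the high dose and 0.77 at the low dose. An intronic window of Zfp64, whose human counterpart drives the leukaemia gene MLL, read 2.12, 1.67 and 3.75 (0.65 at the high dose), with the low dose under the control. The exon 15 window of Zfp618, a partner of UHRF2 in reading hydroxymethylated DNA, was among the strongest Zfp windows, at 6.71, 9.15 and 10.8 (0.63). Its 3 adjoining windows in the same run also read higher at the high dose than in the control.

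At the low dose the other named falls did not all follow the high dose. The exon 4 window of Zfp639, chr3:32520001-32520500, read 5.80, 2.17 and 5.02, with -1.16 for 0.02 mg/kg alone past the limit. An intronic window of Zfp362 behaved likewise, with 1.70, 0.434 and 1.43 (-1.04). A window of Zfp644, whose human counterpart works with the G9a methyltransferase, read 2.05, 0.583 and 0.721 (-1.06), low in both treated libraries. It is annotated as intronic but lies past the bounds of the RefSeq gene. An intronic window of Zfp704 read 1.999, 0.604 and 1.10 (-1.01), also low in both. The low dose changes of Zfp362, Zfp644 and Zfp704 missed the limit under quantile normalization, division by library medians, RPM in place of RMS and trend subtraction. They lay between -0.98 and -0.68 there, while that of Zfp639 stayed past the limit. With the pseudocount multiplied by 3, that of Zfp639 missed it too, at -0.86.

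Among the upward changes at the low dose, an intronic window of Zfp608, a repressor of Rag genes in thymocytes, read 1.04, 2.54 and 1.76 (0.87). One of Zfp592 read 2.19, 4.53 and 1.89 (0.84), so that the low dose library alone stood high. The exon 2 window of Zfp319 read 0.883, 2.17 and 1.67 (0.83), and an intronic window of Zfp750, a regulator of epidermal differentiation, which also lies in Tbcd, read 2.55, 4.38 and 4.32 (0.64). Of the windows that passed the limit between the doses, that of Zfp828 read 0.589, 0.035 and 1.03 (1.17), that of Zfp933 read 1.09, 1.16 and 0.105 (-1.15) and one of Zfp704 read 0.380, 1.67 and 0.400 (-1.07). The Zfp704 window was the other one past the upper limit at the low dose, so this gene had 1 window above the limit and 1 below it in the same library.

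**Figure D3:**
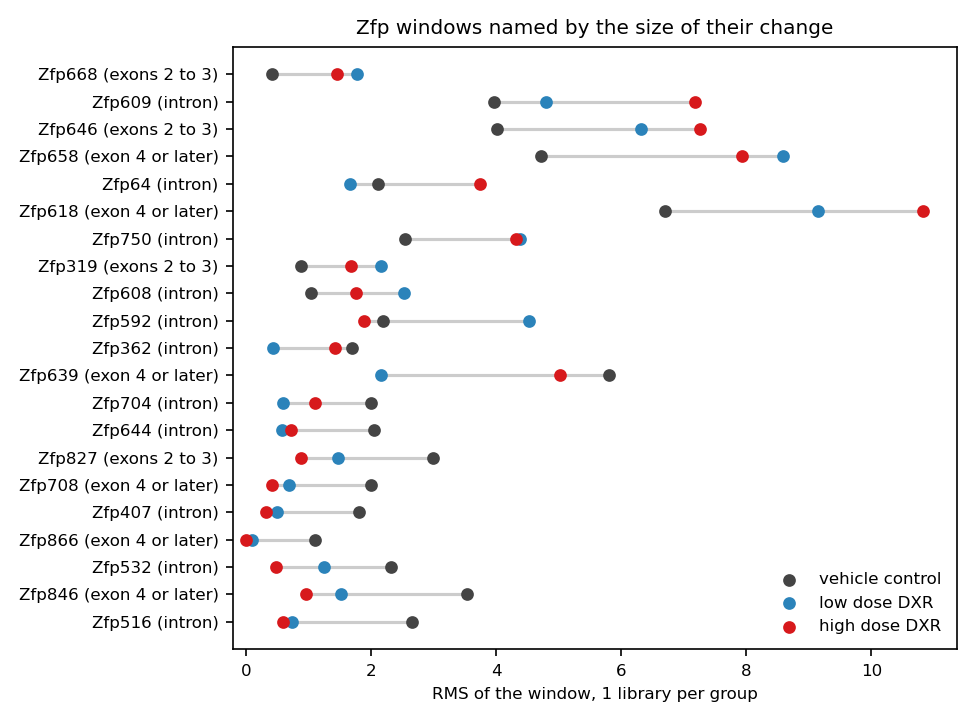
RMS of each named window (horizontal axis) in sperm after vehicle, 0.02 mg/kg and 0.2 mg/kg DXR (grey, blue and red points, 1 library each), with the gene and the place of the window on the vertical axis. The windows of Zfp516 and Zfp407 have both treated libraries far below the control, and Zfp639, Zfp362 and Zfp592 have the low dose library alone far from the control.

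In the genes with most windows, few or none of them passed the limit. Zfp423 had 58 windows, 49 of them intronic, with mean RMS 2.76, 2.53 and 2.51. Of the 58, 39 were below control at the high dose and 0 passed the limit, where 60.8% of all windows and 64.0% of gene-annotated ones were below control. Zfp407 had 49 windows and a mean change of -0.27 at the high dose, with 34 below control and 2 past the limit. Zfp516 had 37 windows and a mean change of -0.10, and the window described above was its only one past the limit. Zfp536, a repressor of neuronal differentiation, had 31 windows with a mean change of -0.15, and Zfp532 had 24 with -0.20.

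Other genes moved more evenly. In Zfp521, a partner of EBF factors in neural and bone precursors, 15 of 16 windows were below control at the high dose and 14 at the low dose, with mean RMS 2.89, 2.53 and 2.18 and a mean change of -0.42, although 0 passed the limit. Its 9 intronic windows were all below control at the high dose, and the exception was the exon window at chr18:13844001-13844500, with 5.48, 7.86 and 7.26. In Zfp618 it was 2 of 14 windows that were below control at the high dose, with mean RMS 2.46, 2.71 and 3.03 and a mean change of 0.18.

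Among the 51 genes with 5 or more windows the mean change at the high dose was below 0 in 38, and at the low dose in 34. Over all windows, 56.7% were below control at the low dose, and 59.2% of gene-annotated ones. These are shares of single windows and cannot be set against counts of gene means. Other genes with 5 or more windows were not counted, so no excess in Zfp genes can be read from the 38 and 34. The lowest mean change at the high dose was that of Zfp697, at -0.55 with 5 of 5 windows below control. Zfp933 followed at -0.45, with 3 of its 9 windows past the lower limit at the high dose. The highest were those of Zfp574 and Zfp319, both at 0.30 with 5 of 5 windows above control. Zfp828, listed by RefSeq as Champ1, a protein of chromosome alignment in mitosis, had mean changes of -0.40 for 0.02 mg/kg and 0.07 for 0.2 mg/kg.

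**Figure D4:**
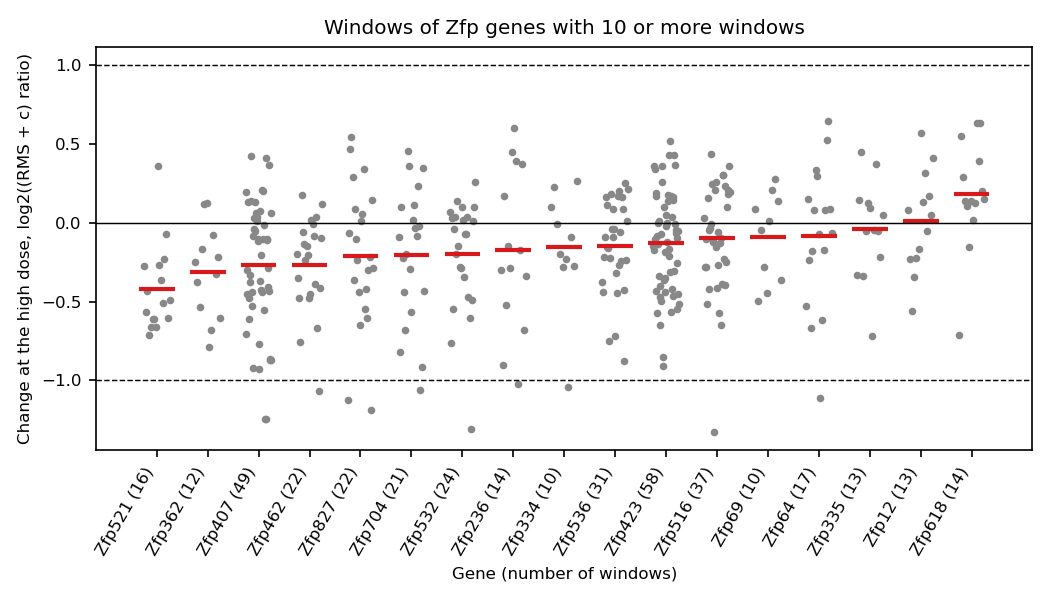
Change of each window at the high dose (vertical axis, log2 ratio with pseudocount) for the 17 Zfp genes with 10 or more windows (horizontal axis, with the number of windows), where grey points are windows, red bars are gene means and dashed lines are the limits of -1 and 1. Zfp521 has the lowest mean, -0.42 over 16 windows, and Zfp618 the highest, 0.18 over 14.

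Of 20 Zfp genes chosen for a known role, 14 had a window. Zfp57, which keeps imprints with TRIM28, had a weak exon 3 window with 1.01, 1.02 and 0.616, lowest at the high dose. Zfp445, with a like role, had an intronic window with 1.46, 0.658 and 1.31, lowest at the low dose. Zfp568, a repressor of a placental Igf2 transcript, had 7 windows with mean RMS 1.79, 2.38 and 1.84, with mean changes of 0.33 for 0.02 mg/kg and 0.02 for 0.2 mg/kg. Zfp36 had 1 window with 0.984, 1.02 and 0.558. The 6 genes without a window were Zfp809 and Zfp932, both repressors of retroviral elements, Zfp42, known as Rex1 in embryonic stem cells, Zfp541, a meiotic chromatin factor of spermatocytes, Zfp37 and Zfp703.

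Zfp genes differed from other genes in how many had a window at all. Counted by overlap with the RefSeq gene whatever symbol the window bore, 185 of 367 protein-coding Zfp genes had a window (50.4%) against 56.6% of 21520 others. Of Zfp genes under 10 kb 58.2% had one, against 26.3% of others, and their windows were denser, at 25.1 against 14.1 per 100 kb. Of those of 10 to 30 kb 41.6% had one against 61.9%, with 7.19 against 12.0 windows per 100 kb. Of those of 30 kb or more 70.4% had one against 84.3%, yet their windows were denser, at 9.02 against 6.88 per 100 kb. Over all lengths the density was 8.84 against 7.67.

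Zfp genes were grouped into clusters by chaining neighbours with gaps of at most 500 kb, which gave 34 clusters of 3 or more genes with 228 genes in all. Windows bearing the symbol were found for 88 of these genes (38.6%). Chromosome 7 held 9 clusters with 77 genes. By overlap, 44.0% of the cluster genes that code for protein had a window and 60.6% of the Zfp genes outside clusters. The cluster genes were shorter, with a median of 16.1 kb against 22.2 kb. Under 10 kb the order was the other way, with 60.6% in clusters and 54.5% outside. At 10 to 30 kb it was 39.9% against 45.2%, and at 30 kb or more 47.1% against 87.2%. Cluster genes had 271 windows, of which 72.7% were exonic, with median RMS 2.12, 2.04 and 1.93. Genes outside clusters had 611 windows, 47.5% exonic, with 1.94, 1.78 and 1.58. At the high dose the median changes were -0.09 and -0.12, and 10 windows (3.69%) and 14 windows (2.29%) were lower. Of all windows 2.52% were lower there, and of gene-annotated ones 2.85%. At the low dose the order was the other way, with 3 windows (1.11%) in clusters and 9 (1.47%) outside lower. The background there was 1.24% of all and 1.39% of gene-annotated windows.

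**Figure D5:**
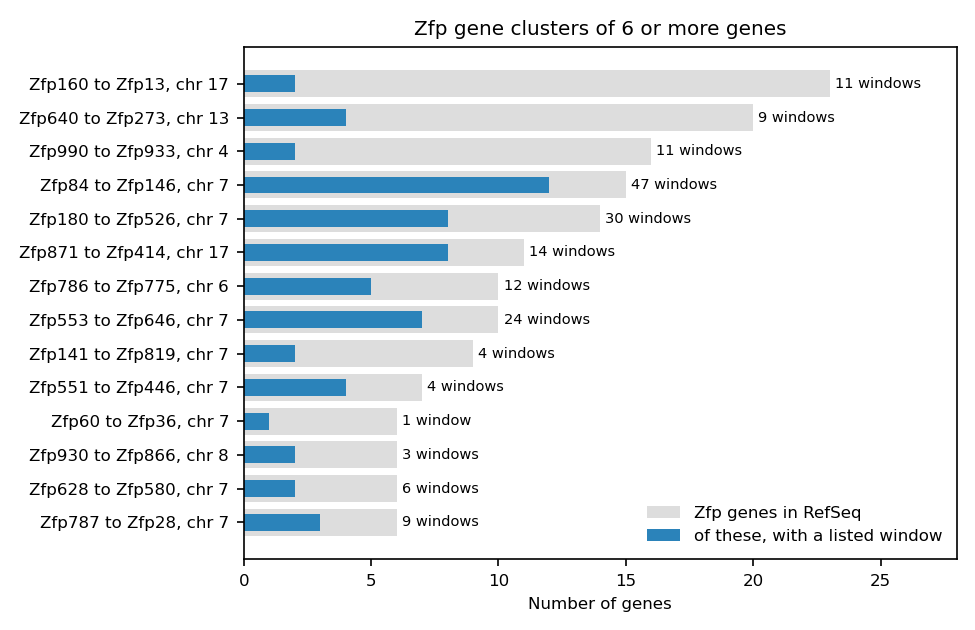
Number of Zfp genes in RefSeq (grey bars) and of those with a listed window bearing their symbol (blue bars) on the horizontal axis, for each cluster of 6 or more genes on the vertical axis, with the number of windows beside the bar. In the cluster from Zfp84 to Zfp146 on chromosome 7 it is 12 of 15 genes, and in that from Zfp160 to Zfp13 on chromosome 17 it is 2 of 23.

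Clusters differed widely in how many genes had a window. In the compact cluster from Zfp84 to Zfp146, chr7:29768552-30169775, 12 of 15 genes had one, with 47 windows, 37 of them exonic, and medians of 1.85, 1.54 and 1.73. Inside it Zfp74 averaged 3.15, 3.14 and 2.93 over 6 windows, while Zfp566 averaged 1.17, 0.685 and 0.714 over 3. The cluster from Zfp180 to Zfp526 on the same chromosome had windows in 8 of 14 genes and the medians 2.95, 2.67 and 2.72, from Zfp526 at 4.93, 5.70 and 5.10 to Zfp111 at 1.26, 0.507 and 0.521. These genes were taken as the highest and lowest of each cluster by mean RMS, so their order is given by the choice.

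In the cluster from Zfp553 to Zfp646, chr7:127233061-127885996, all 24 windows of 7 genes were exonic, with medians of 2.62, 2.48 and 2.39. Zfp553 stood highest at 6.09, 5.51 and 5.76 over 3 windows and Zfp768 lowest at 1.29, 1.46 and 1.47 over 2. This cluster holds Zfp668 and Zfp646, whose named windows were higher than control in both treated libraries, yet its median change at the high dose was 0.05. The cluster from Zfp871 to Zfp414 on chromosome 17 had windows in 8 of 11 genes, with medians of 1.59, 1.82 and 1.98. Window by window the median change was -0.10 at the low dose, with 8 of 14 below control and 1 past the lower limit, and 0.04 at the high dose.

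Several large clusters had few genes with a window bearing their symbol. That from Zfp640 to Zfp273 on chromosome 13 had symbol-bearing windows in 4 of 20 genes, with medians of 1.999, 1.51 and 1.30 and -0.26 as the median change for 0.2 mg/kg over 9 windows. That from Zfp160 to Zfp13 on chromosome 17 had them in 2 of 23, and that from Zfp990 to Zfp933 on chromosome 4 in 2 of 16, all 11 windows intronic. On chromosome 4 the symbol alone gave too low a count: by position 10 of the genes overlapped 109 windows, most under other symbols, which is 8.64 per 100 kb of gene against 7.39 over all cluster genes. Clusters with 0 windows bearing a Zfp symbol numbered 6, among them those from Zfp968 to Zfp966 and from Zfp970 to Zfp931 on chromosome 2.

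The clusters also differed in how alike their genes were. As a measure, the share of 20-base words of a gene's promoter that recur in promoters of other Zfp genes, on either strand, had a cluster median of 100% from Zfp968 to Zfp966, 65.3% from Zfp970 to Zfp931 and 57.8% from Zfp990 to Zfp933. It was 5.69% from Zfp640 to Zfp273. It was 0 from Zfp160 to Zfp13, where few genes had a window, and also 0 from Zfp84 to Zfp146, where most had one. These medians of 0 hide a difference in single genes. From Zfp160 to Zfp13, 5 of 21 genes with a promoter shared at least 10% of their words, and from Zfp84 to Zfp146 0 of 14. From Zfp640 to Zfp273 it was 6 of 18. Of genes without a window by position 17.1% shared at least 10% of their words, and of genes with one 8.51%. How the authors treated reads that match several places was not given in the sources used here, and its part in these counts was not tested.

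Partners of KRAB proteins in silencing had windows in 17 of 22 genes. Of their 96 windows, 2 were lower and 0 higher at the high dose, and 1 was lower at the low dose, with median changes of -0.16 and -0.17. The lower ones were in Atf7ip, the stabilising partner of SETDB1, with 3.67, 2.64 and 0.934 (change -1.38), in Hdac1, a histone deacetylase, with 1.94, 0.882 and 0.504 (-1.09), and in Dnmt1, the maintenance methyltransferase, with 1.90, 0.144 and 0.651 (-1.55 at the low dose). Each was highest in the control library, which the choice of lower windows favours. For comparison, 2.85% of all gene-annotated windows were lower at the high dose and 1.39% at the low dose.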

How the data were processed

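DNA bound by MBD2 was sequenced from sperm of 3 groups, with 1 library per group. The authors deposited 1 table of 500 bp windows on mm10, per the submitters' processing notes, with annotation from Ensembl transcripts dated 2013, month 4, day 3, and 500 bp of upstream and downstream reach, per the file headers. In it RPM is a read density scaled by the authors to library size, RMS and AMS are scores of methylation deposited for each library, and the deposited ratio is that of low dose RMS to control RMS (not used here). The aligner and read filters were not given in the sources used here, and no reads or counts came with the values. Within a library the RPM values move in equal steps, so read counts per window could be worked out from them. This was not done here, and no interval is given.

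Each window was counted once per gene, in a table of 297037 lines. Calculations used Python 3.11.15, numpy 2.4.6, pandas 2.3.3 and matplotlib 3.10.9, and were tested on simulated data. Changes were taken over all windows with the pseudocount 0.766 and a limit of 2-fold, with no test. Gene spans and promoters came from the RefSeq tables for GRCm38.p6, in which 165 of the 178 symbols matched by symbol, 8 by an older symbol, and 5 (Zfp101, Zfp456, Zfp664, Zfp738 and Zfp943) not by position.

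The rule for named genes took, for each dose, the 6 genes with the largest change each way among windows whose larger RMS was at least 1.68, the 10 strongest upstream or exon 1 windows, the 5 genes with most windows, the highest and lowest genes of clusters with 4 or more genes, genes past the limit at both doses, and lists of genes of known role and of silencing partners. Further genes were named after their values were seen: Zfp507, Zfp574, Zfp697, Zfp707, Zfp334, Zfp828, Zfp933, Zfp69, Zfp277, Zfp664 and those at the limit. The members, lists and rules were chosen with earlier results of these data known. Alternatives covered the pseudocount, scaling between libraries, the trend with read density, RPM in place of RMS, filters, the limit and the cluster gap.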

Additional observations from a re-analysis of the deposited data

How the results depend on the processing

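With the pseudocount divided by 3, lower and higher Zfp windows numbered 73 and 1 at the high dose, 44 and 9 at the low dose, and 15 and 5 between the doses; multiplied by 3, all of these counts were 0 and the high dose median was -0.0734. Quantile normalization gave 4 and 1, 2 and 6, and 0 lower between the doses, with medians of -0.0360 and -0.0257. Division by library medians gave 4 lower at the low dose and 2 higher between the doses, and turned the medians to 0.0319 and 0.00441; it moved the median of all windows at the high dose from -0.10 to 0.04, and quantile normalization to 0.01, so the sign of a median near 0 rests on the scaling. With the trend in RPM and CpG factor subtracted the counts were 1 and 4, 2 and 7, and 1 and 4, with medians of -0.0290 and -0.0224. RPM in place of RMS gave 25 lower and 1 higher at the high dose, 6 and 1 at the low dose, 0 higher between the doses and a low dose median of -0.00409. Requiring RMS above 1 in all 3 libraries gave 1 lower at each dose, 0 higher at the low dose, 0 each way between the doses, and medians of -0.0483 and -0.0237; this filter leaves out windows that fell below 1. Exonic windows alone gave 10 lower at the high dose, 4 lower and 1 higher at the low dose, 0 lower between the doses, and medians of -0.0662 and -0.0331. A limit of 1.5-fold gave 117 and 13, 80 and 19, and 33 and 11, and 13.3% of Zfp windows lower at the high dose against 13.6% of all. Leaving out windows that also name another gene gave 23 lower at the high dose and 9 at the low dose. Cluster gaps of 250 kb and 1000 kb gave 28 and 33 clusters in place of 34. For 25 pairs of a named window and a comparison there were 160 alternative values, of which 0 changed sign. The pseudocount and the filter on RMS cannot turn a sign, and the pairs were chosen mostly for large changes. The 0 therefore says little about how stable the signs are. Of the 160 values, 39 dropped below the limit and 8 rose past it. Pairs within the limit from the start, such as that of Zfp618 at the high dose, could not drop below it, so the 39 come from the other pairs alone. Apart from the settings whose construction shows the cause, the cause was not tested. No paired analysis was possible because there was 1 library per group.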
